A study of Danio rerio with 6 samples.

Results

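Fibroblast growth factor (FGF) genes were taken as every gene whose symbol begins with fgf or fgfr followed by a digit, without regard to case, leaving out *fgfbp* and *fgfrl*. This gave 38 of the 31465 genes quantified. They comprised 24 genes for secreted FGFs in 6 subfamilies, 7 genes of the FGF11 subfamily, 6 receptor genes and *FGFR1OP2*, which shares only the beginning of its symbol with the receptors. Expression was measured by RNA-seq in zebrafish hearts of the enhancer trap line sqet33mi59BEt at 72 h post fertilization (hpf), in which a ring of cells at the venous pole carries GFP. Hearts of pooled embryos were dissociated and sorted into a GFP+ fraction, the sinoatrial ring (SAR), and a GFP- fraction, the rest of the heart (ROH), with 3 libraries each. All libraries carry the same transgene, the labels name no treatment, and the GFP gate defines the fractions. The GFP reporter marks a trapped enhancer rather than a cell type, and every library is a bulk sample of sorted cells.

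Secreted FGFs bind tyrosine kinase receptors together with heparan sulfate chains and activate the RAS-MAPK cascade, which induces ETS transcription factors and feedback inhibitors such as Sprouty proteins and dual-specificity phosphatases. The FGF19 subfamily acts as hormones with Klotho co-receptors. Proteins of the FGF11 subfamily, also named FGF homologous factors, are not secreted and in mammals bind voltage-gated sodium channels. In the vertebrate heart, FGFs are known for roles in the second heart field, the epicardium and the growth of the chambers. Several zebrafish genes are annotated with the human symbol and share it with a second copy, and these are given with their Ensembl identifier.

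Libraries differed strongly in depth. The estimated counts summed to 7494962, 35013783 and 77243046 in SAR replicates 1 to 3 and to 999206, 23495640 and 19081714 in ROH replicates 1 to 3. A signal of 3 counts, taken as the floor, corresponded to 2.81 CPM (counts of a library scaled to a common library size) in ROH replicate 1 and to at most 0.437 CPM in the other libraries, so low values of ROH replicate 1 rest on few reads. Of 10 pacemaker markers, 8 were estimated higher in SAR and 2 lower, down to a log2 fold change of -1.56. The test was passed by 5, all with a higher level in SAR. TPM (length-corrected transcript levels) of the 10 summed to 310–353 in SAR and 124–195 in ROH. Other cell types moved with the fractions too. Of 10 tested cardiomyocyte markers, 9 were estimated higher in SAR and 2 passed (summed TPM 1118–4352 against 781–1489). All 5 epicardial markers passed with a higher level in SAR (summed TPM 672–862 against 81.1–116), as did 7 of 10 epidermal markers (4910–6860 against 1049–1178). *tbx18* counts among both the pacemaker and the epicardial markers. Endothelial markers (343–461 against 630–1472, 5 of 8 passed), erythroid markers (13.4–21.6 against 15364–28912, 7 of 7) and liver markers (56.4–2159 against 11017–18927, 6 of 9) were lower in SAR. So were leukocyte markers (2.29–3.72 against 237–408, 6 of 7). The part of these cell types in the FGF results was not tested. In bulk samples, fewer cells of a type and less RNA per cell cannot be told apart.

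Most of the FGF genes that could be tested were estimated higher in SAR, among them all receptors. Of the 38 genes, 29 had enough counts for a test. Their median log2 fold change, always given as SAR over ROH, was 0.75 beside 0.03 over all 21969 tested genes. Estimates were above 0 for 21 and below 0 for 8, compared with 52.3% above 0 among all tested genes. These numbers include genes near the count filter, such as *fgf11b* and *FGF19*, that met it mostly or only with the fraction where they are higher. An adjusted p below 0.05 in edgeR's quasi-likelihood test was reached by 6 FGF genes, all higher in SAR, namely *FGFR3*, *fgfr4*, *FGFR2*, *fgf24*, *fgf10a* and *FGF13* (ENSDARG00000035056). The same threshold was passed upwards by 4.88% and downwards by 5.45% of all tested genes. Leaving out 1 library at a time left between 2 and 4 FGF genes past it, with the lowest number without ROH replicate 2, and *FGFR3* and *fgf24* passed each time. With an added fold change threshold of 1.5 on the log2 scale, *fgf24* and *FGF13* (ENSDARG00000035056) were called overexpressed in SAR and no FGF gene was called underexpressed. That threshold was met by 2.84% of tested genes upwards and 3.70% downwards. Without ROH replicate 3 the number called overexpressed was 4, and without SAR replicate 1, SAR replicate 2 or ROH replicate 2 it was 1. DESeq2 called 2 FGF genes, *fgf4* and *FGF19*, lower in SAR, beside 4.61% of the genes it tested, and the same 2 had an unadjusted p below 0.05 in edgeR, as did 12.1% of all tested genes downwards. With the replicate number as a block, 7 FGF genes passed upwards beside 6.77% of all tested genes. For 11 FGF genes every SAR library exceeded every ROH library in CPM and for 4 every SAR library was below, beside 14.3% and 15.6% of all tested genes. *FGFR1OP2*, neither ligand nor receptor, is 1 of these 4 and counts among the 29 tested.

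**Figure D1:**
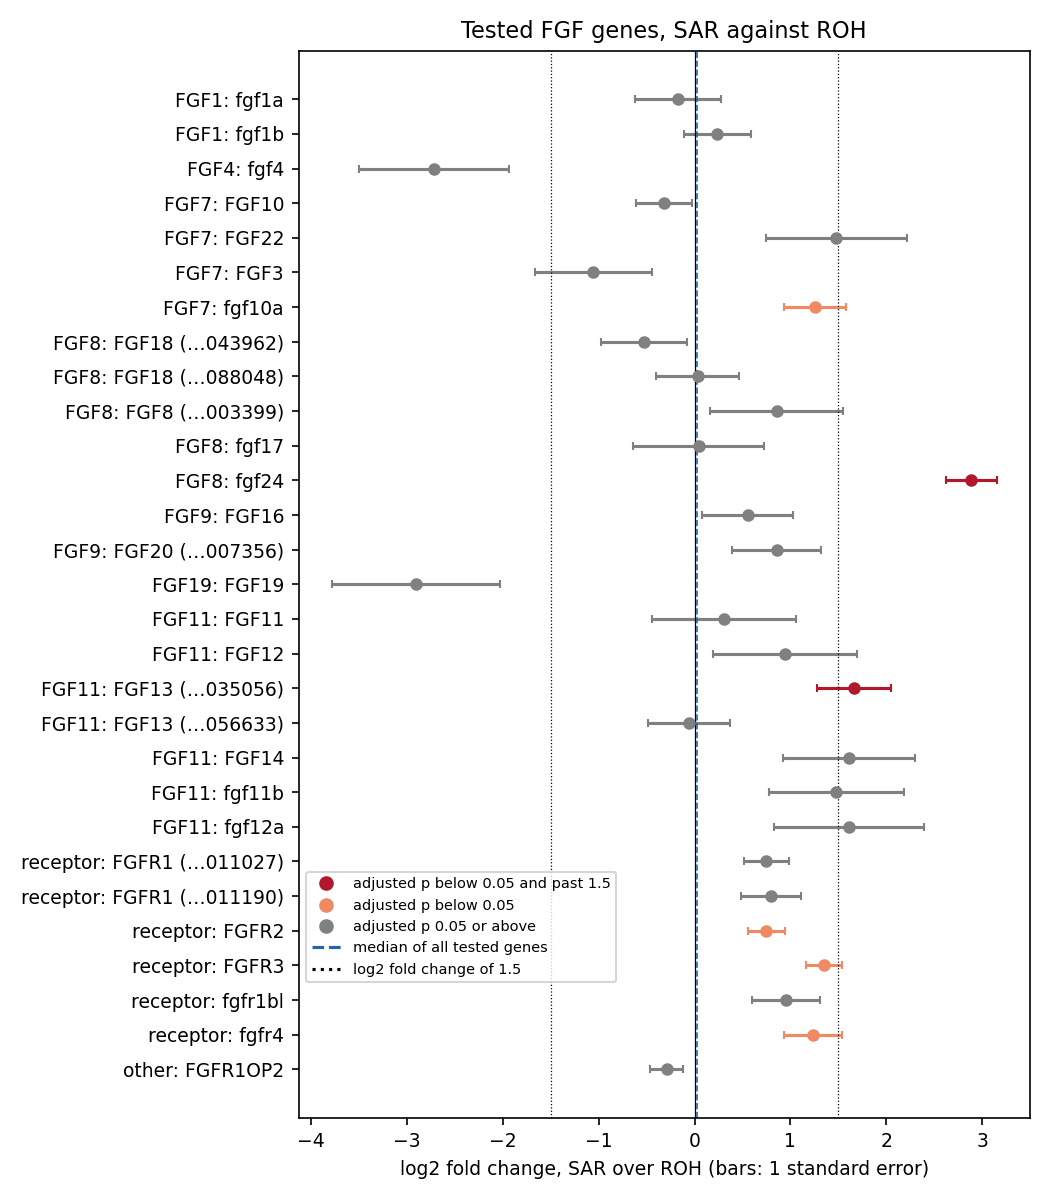
Log2 fold change (SAR over ROH) of the 29 tested FGF genes grouped by subfamily or role, with bars of 1 standard error, dark red for called genes, orange for an adjusted p below 0.05, grey for the rest, and lines at 0, at the median of all tested genes (dashed) and at the fold change threshold of 1.5 in each direction (dotted). All 6 receptors lie between 0.75 and 1.35, whereas the secreted ligands run from -2.90 for *FGF19* to 2.89 for *fgf24*.

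All 6 receptor genes were estimated higher in SAR, with log2 fold changes between 0.75 and 1.35, 3 passed the test, none reached the fold change threshold, and in 5 the fractions did not overlap in CPM. Each of the 17 other settings kept all 6 estimates above 0. TPM summed over the receptors were 251, 294 and 367 in SAR and 103, 143 and 171 in ROH. The means were 304 ± 58.4 and 139 ± 33.9 (SD, n = 3), a ratio of 2.19.

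The receptor gene with the highest level in both fractions was *fgfr4* (ENSDARG00000069105), whose mammalian counterpart is the main FGF receptor of hepatocytes. Its TPM was 109, 139 and 205 in the SAR libraries and 38.5, 68.0 and 81.3 in the ROH libraries, without overlap. The mean was 151 ± 48.9 in SAR and 62.6 ± 21.9 in ROH (SD, n = 3). The log2 fold change was 1.23 ± 0.30 (SE, edgeR adjusted p = 0.0370). Without SAR replicate 3, ROH replicate 1 or ROH replicate 2 the adjusted p rose to at most 0.132 and the estimate lay between 0.97 and 1.28. It also exceeded 0.05 with gene length offsets and in the 3 limma settings, where it was at most 0.105. Liver markers summed to more TPM in every ROH library than in any SAR library, and their part in the *fgfr4* result was not tested.

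The largest receptor log2 fold change was that of *FGFR3* (ENSDARG00000004782), known for its role in skeletal growth. Its TPM values of 60.4, 59.6 and 65.0 in SAR hardly varied, and all exceeded the 20.5, 20.8 and 29.2 of ROH. The means were 61.7 ± 2.89 and 23.5 ± 4.97 (SD, n = 3). The log2 fold change of 1.35 ± 0.19 (SE, edgeR adjusted p = 0.00466) was just under the fold change threshold. The adjusted p stayed below 0.05 whichever library was left out, with estimates between 1.26 and 1.61.

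*FGFR2* (ENSDARG00000058115), whose mammalian epithelial isoform is the receptor of FGF7 and FGF10, rose less. TPM was 42.0, 55.6 and 43.5 in SAR and 14.8, 34.9 and 28.4 in ROH, again without overlap. Means were 47.0 ± 7.45 and 26.0 ± 10.3 (SD, n = 3), and the log2 fold change was 0.75 ± 0.19 (SE, edgeR adjusted p = 0.0452). The adjusted p lay between 0.0657 and 0.121 when any one library was left out. Of all 17 other settings, 4 kept it below 0.05, and it was at most 0.223.

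The 3 type 1 receptor genes did not pass the test, although their estimates were as large as that of *FGFR2*. *fgfr1bl* (ENSDARG00000104015) had TPM of 18.5, 16.01 and 22.99 in SAR and 11.1, 5.74 and 12.7 in ROH, without overlap, and a log2 fold change of 0.96 ± 0.35 (SE, edgeR adjusted p = 0.140). With the replicate number as a block its adjusted p was 0.0242. *FGFR1* (ENSDARG00000011027) had TPM of 5.27, 9.67 and 8.69 in SAR and 4.15, 5.94 and 5.40 in ROH, with a log2 fold change of 0.75 ± 0.23 (SE, edgeR adjusted p = 0.0856). Its fractions overlapped in TPM and were separate in CPM. The second *FGFR1* copy (ENSDARG00000011190) had TPM of 16.2, 13.7 and 22.1 in SAR and 14.4, 7.36 and 13.7 in ROH, with overlap, and a log2 fold change of 0.80 ± 0.31 (SE, edgeR adjusted p = 0.166). Its effective length, the length over which Salmon spreads the reads, ran from 250 to 905 bases between libraries, so its TPM depends on which transcripts the reads were assigned to. That of the first *FGFR1* copy ran from 995 to 1915 bases. With gene length offsets the estimates of the first and second copy were 0.49 and 0.52 (edgeR adjusted p = 0.424 and 0.553).

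**Figure D2:**
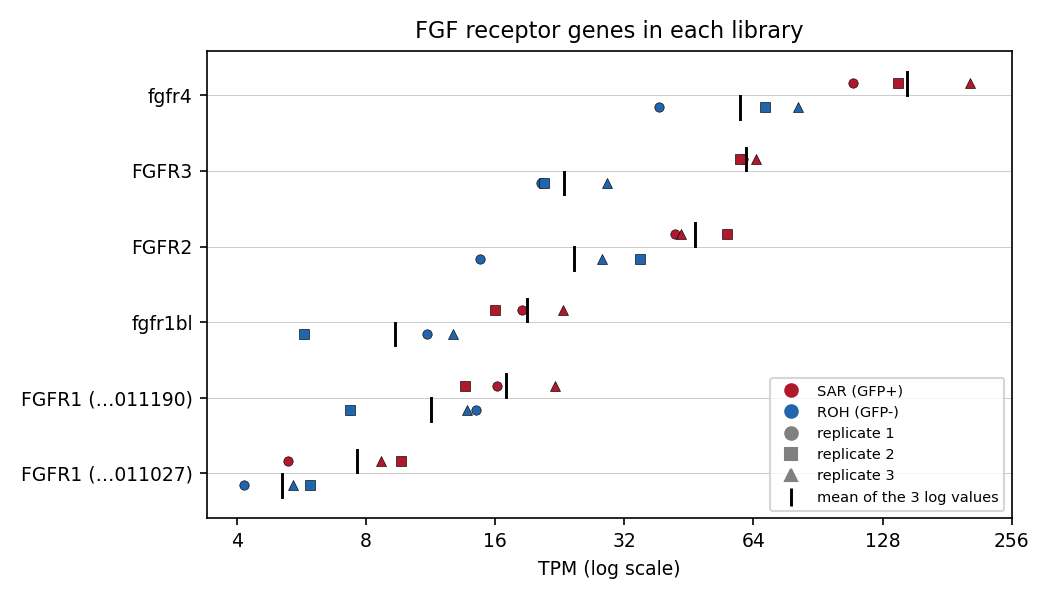
TPM (log axis) of the 6 FGF receptor genes in each library, as points for the 3 SAR and 3 ROH libraries with a bar at the mean of the 3 log values. The SAR points of *fgfr4*, *FGFR3*, *FGFR2* and *fgfr1bl* all lie above their ROH points, and those of both *FGFR1* copies overlap.

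The make-up of the receptor transcripts differed less than their sum. The order of the means was *fgfr4*, then *FGFR3* and *FGFR2*, then the type 1 genes in SAR, and the levels of *FGFR2* and *FGFR3* were within each other's spread in ROH. *fgfr4* supplied 48.8 ± 6.33% of the receptor TPM in SAR and 44.2 ± 6.02% in ROH (SD, n = 3). *FGFR3* supplied 20.7 ± 3.18% and 17.2 ± 2.63%, *FGFR2* 15.8 ± 3.62% and 18.4 ± 5.32%, and the type 1 genes together 14.7 ± 1.24% and 20.2 ± 7.81%. These shares overlapped between the fractions for each of the 4 receptor types.

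Secreted ligands also summed to a higher level in SAR, but single genes went in both directions. Summed over the 24 genes, TPM was 136, 115 and 132 in SAR and 94.7, 62.3 and 75.8 in ROH, with means of 128 ± 11.4 and 77.6 ± 16.3 (SD, n = 3). Of the 15 secreted ligands tested, 9 were estimated higher and 6 lower in SAR, and their median log2 fold change was 0.04. Of these, *fgf24* and *fgf10a* passed the test.

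*fgf24* (ENSDARG00000037677), a ligand of the FGF8 subfamily that in zebrafish acts in the pectoral fin bud, showed the largest increase. Its TPM was 21.7, 22.8 and 32.7 in the SAR libraries and 2.71, 3.18 and 3.94 in the ROH libraries. Every SAR library was thus several times above every ROH library. The means were 25.7 ± 6.10 and 3.27 ± 0.617 (SD, n = 3), and the log2 fold change was 2.89 ± 0.26 (SE, edgeR adjusted p = 0.000821), a fold change of 7.39. The 3 ROH libraries held 5, 125 and 129 of its reads, so the value of ROH replicate 1 is imprecise, but the estimate stayed between 2.70 and 3.14 and the adjusted p at most 0.00772 whichever library was left out. Of 11 fin bud markers, 2 were estimated higher in SAR, 1 of them passing the test, and 2 passed with a lower level. Their summed TPM ran from 256 to 1970 in SAR and from 717 to 2164 in ROH.

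*fgf10a* (ENSDARG00000030932), an FGF7 subfamily ligand whose mouse counterpart marks the second heart field, was the most abundant secreted ligand in all 6 libraries. TPM was 70.0, 44.7 and 48.6 in SAR and 24.2, 16.05 and 28.3 in ROH, without overlap. Means were 54.4 ± 13.7 and 22.9 ± 6.24 (SD, n = 3), and the log2 fold change was 1.26 ± 0.32 (SE, edgeR adjusted p = 0.0446). The adjusted p was below 0.05 without SAR replicate 2 or ROH replicate 3 and reached up to 0.157 when one of the other 4 libraries was left out. In limma, pseudocounts of 1 and 0.1 gave 0.0569 and 0.0606. The other copy, *FGF10* (ENSDARG00000100475), did not pass, with TPM of 5.17, 7.30 and 9.27 in SAR and 17.6, 7.92 and 9.64 in ROH and a log2 fold change of -0.31 ± 0.29 (SE, edgeR adjusted p = 0.610). Its TPM of 17.6 in ROH replicate 1 rests on 7 counts at an effective length of 370 bases. In CPM that library was the lowest of the 6, at 6.56. Within a library the log2 ratio of *FGF10* to *fgf10a* CPM was -3.33 ± 0.59 in SAR and -1.84 ± 0.56 in ROH (SD, n = 3), without overlap. An exact two-sided permutation test gave p = 0.1, the smallest that 3 against 3 libraries allow, and 0.45 after adjustment over 9 pairs of copies.

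**Figure D3:**
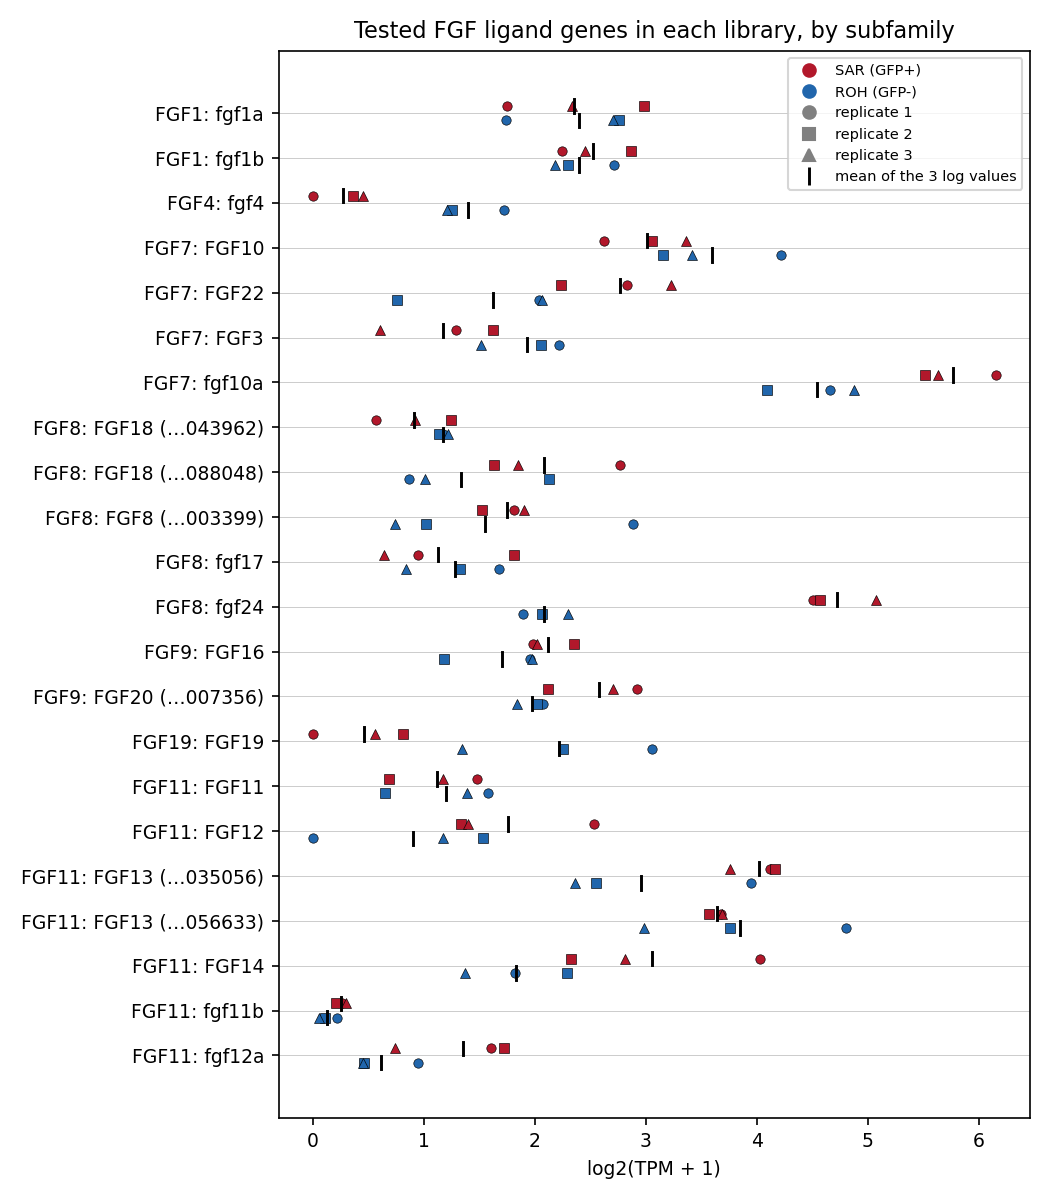
Level of the 22 tested FGF ligand genes on a log2(TPM + 1) axis, grouped by subfamily, as points for the 3 SAR and 3 ROH libraries with a bar at the mean of the 3 log values. The points of *fgf24* lie between 21.7 and 32.7 TPM in SAR and between 2.71 and 3.94 TPM in ROH without overlap.

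Among the secreted FGF transcripts, the 2 genes that passed the test took a larger joint share in SAR. *fgf10a* and *fgf24* together made up 67.3, 58.8 and 61.7% of the secreted ligand TPM in SAR and 28.4, 30.9 and 42.5% in ROH. The means were 62.6 ± 4.32% and 33.9 ± 7.54% (SD, n = 3), without overlap. Since both genes passed the test upwards in these libraries, their larger joint share follows from that choice and is no further support. *fgf24* alone went from 4.38 ± 1.32% in ROH to 20.2 ± 4.48% in SAR. The share of *fgf10a* alone was 51.4, 39.0 and 36.8% in SAR and 25.6, 25.8 and 37.3% in ROH, with overlap. Shares add up to the same total in each library, so they are not independent of each other. By subfamily, the FGF8 genes summed to 34.3 ± 5.05 TPM in SAR and 10.6 ± 2.72 in ROH, and the FGF7 genes to 70.0 ± 12.8 and 40.4 ± 10.3 (SD, n = 3). Without *fgf24* the FGF8 sums were 8.57 ± 1.17 and 7.34 ± 3.33, and without *fgf10a* the FGF7 sums were 15.6 ± 3.53 and 17.6 ± 6.05, both overlapping between the fractions. The FGF1 genes (9.61 ± 3.67 and 8.997 ± 0.982) and FGF9 genes (11.1 ± 2.35 and 9.60 ± 3.46) differed by less than their spread. The FGF4 genes (1.97 ± 0.479 and 3.61 ± 1.12) and FGF19 genes (0.502 ± 0.516 and 4.38 ± 2.88) had lower sums in SAR.

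**Figure D4:**
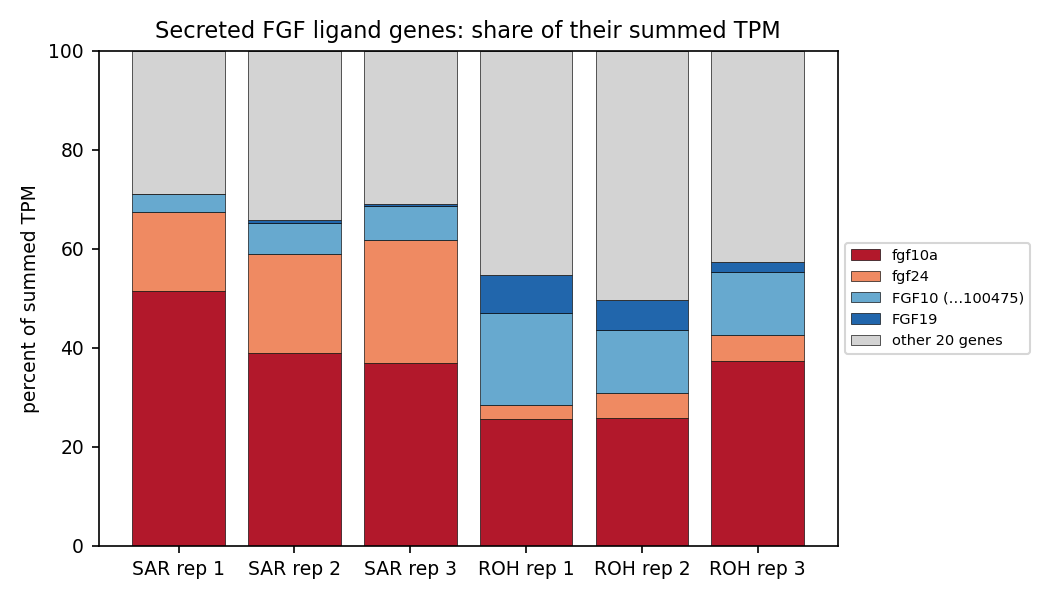
Share (percent) of the summed TPM of the 24 secreted FGF genes taken by each named gene in each of the 6 libraries, as stacked bars. *fgf10a* and *fgf24*, the 2 secreted ligands that passed the test, together take 58.8 to 67.3% in the SAR libraries and 28.4 to 42.5% in the ROH libraries.

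Lower levels in SAR were seen in 3 neighbouring ligand genes, none of which passed the test. *FGF3*, *fgf4* and *FGF19* (ENSDARG00000098663) lie next to each other in the RefSeq gene order, with no protein-coding gene between them. *fgf4* is known from limb bud outgrowth, and its CPM was 0, 0.583 and 0.809 in SAR and 5.62, 3.02 and 3.10 in ROH. Its counts were 0, 20 and 62 in SAR and 6, 75 and 59 in ROH, and the log2 fold change was -2.72 ± 0.78 (SE, edgeR adjusted p = 0.0651). DESeq2 gave an adjusted p of 0.0036 for the same gene, and edgeR gave 0.0414 without SAR replicate 1. These were the only 2 of 14 other settings below 0.05. Without any one of the other libraries the edgeR adjusted p lay between 0.0964 and 0.170.

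*FGF19*, whose mammalian counterpart is a gut hormone that regulates bile acid synthesis, was also estimated lower in SAR. CPM was 0, 0.467 and 0.196 in SAR and 3.75, 2.22 and 0.999 in ROH, and the log2 fold change was -2.90 ± 0.88 (SE, edgeR adjusted p = 0.0756). Its counts were 0, 16 and 14.7 in SAR and 4, 55.0 and 19 in ROH. The value of ROH replicate 1 thus lies near the floor of 2.81 CPM. No SAR library reached the filter minimum of 0.470 CPM, so the gene was tested only through ROH, where it is higher. DESeq2 gave an adjusted p of 0.0155, and edgeR gave between 0.0550 and 0.276 with any one library left out. *FGF3* (ENSDARG00000101540), a regulator of ear and hindbrain development, had CPM of 2.04, 2.45 and 0.640 in SAR and 4.68, 3.87 and 2.47 in ROH, with a log2 fold change of -1.06 (edgeR adjusted p = 0.363). For all 3 genes each ROH library was above each SAR library in CPM, narrowly for *FGF3*, whose fractions overlapped in TPM. *fgf4* reached the filter minimum in SAR replicates 2 and 3 but had 0 counts in SAR replicate 1. Because *FGF19* met the filter only with ROH libraries and the counts of *fgf4* in SAR were low, this is no support for a shared pattern. The flanking genes *zgc:153993* and *lto1* had log2 fold changes of 0.31 and 0.18 and did not pass.

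The other tested secreted ligands had mean TPM of at most 6.06 in either fraction, and none passed the test. In the FGF7 subfamily, *FGF22* had TPM of 6.09, 3.71 and 8.39 in SAR and 3.11, 0.692 and 3.18 in ROH, without overlap, and a log2 fold change of 1.48 (edgeR adjusted p = 0.278). Its ROH values rest on 1, 5 and 20 counts, so the lack of overlap carries little weight. In the FGF9 subfamily, *FGF20* (ENSDARG00000007356) reached 5.14 ± 1.65 TPM in SAR and 2.94 ± 0.327 in ROH (SD, n = 3), with a log2 fold change of 0.86 (edgeR adjusted p = 0.323), and *FGF16* had one of 0.55 (edgeR adjusted p = 0.567). The ROH replicate 1 value of this *FGF20* copy rests on 2 counts. The broadly binding ligands *fgf1a* and *fgf1b* had log2 fold changes of -0.17 and 0.24 with overlapping libraries. In the FGF8 subfamily, *FGF8* (ENSDARG00000003399) had TPM of 2.51, 1.88 and 2.75 in SAR and 6.39, 1.03 and 0.674 in ROH. ROH replicate 1 alone was high, and that value rests on 6 counts. The log2 fold change of this copy was 0.86 (edgeR adjusted p = 0.540). The *FGF18* copies and *fgf17* had log2 fold changes between -0.53 and 0.04, with adjusted p of at least 0.567.

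Too few reads were available for 9 secreted ligands, namely *fgf2*, *FGF5*, both *FGF6* copies, *fgf7*, *FGF8* (ENSDARG00000039615), *FGF20* (ENSDARG00000086070), *fgf9* and *fgf23*. None of them had more than 71.0 estimated counts in a library, and their highest mean in a fraction was 3.64 TPM, that of *fgf9* in ROH. Both their level and any difference between the fractions were near the limit of this depth, and no fold change is given.

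Of the intracellular FGF11 subfamily, all 7 genes were tested and 6 were estimated higher in SAR, but a single one passed. The estimates had their median at 1.48, and that of *FGF11* turned to -0.65 with gene length offsets. The median was the estimate of *fgf11b*, whose CPM was 1.17, 0.700 and 1.16 in SAR and 0.937, 0.403 and 0.210 in ROH. In ROH only replicate 1 reached the filter minimum of 0.470 CPM, on 1 count, so this gene was tested mainly through SAR. The number of higher estimates is thus no support for a shared pattern. The gene that passed was *FGF13* (ENSDARG00000035056), whose mammalian counterpart tunes the inactivation of cardiac sodium channels. Its CPM was 20.4, 21.1 and 13.03 in SAR and 10.3, 4.15 and 5.26 in ROH, without overlap. Its log2 fold change was 1.66 ± 0.39 (SE, edgeR adjusted p = 0.0308), a fold change of 3.17. The call was lost with limma, where the estimates were 1.06, 1.18 and 1.06 and the adjusted p between 0.207 and 0.3003, and with thinned counts, which gave 1.14 (edgeR adjusted p = 0.0778). In TPM the fractions overlapped, with 16.4, 16.9 and 12.5 in SAR and 14.4, 4.88 and 4.13 in ROH. The adjusted p was below 0.05 without SAR replicate 3 or ROH replicate 1 and between 0.0525 and 0.132 without any one of the others. The effective length of 172 to 283 bases makes the TPM sensitive to the fragment lengths of each library. FGF homologous factors are also known from neurons. Among 8 neuronal markers, 7 had estimates above 0 and 1 below, and a single one passed, upwards. The estimates of these markers had their median at 1.02. Their summed TPM was 304–600 in SAR and 213–562 in ROH, where the 562 is that of ROH replicate 1, the smallest library. The part of neurons in the *FGF13* result was not tested.

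The other copy of *FGF13* (ENSDARG00000056633) did not pass, and its estimate lay near 0 and changed sign between settings. Its TPM was 11.8, 10.9 and 11.9 in SAR and 26.9, 12.5 and 6.92 in ROH, with a log2 fold change of -0.06 ± 0.43 (SE, edgeR adjusted p = 0.963). The log2 CPM ratio of the first to the second copy was 0.36 ± 0.45 in SAR and -1.19 ± 0.62 in ROH (SD, n = 3). The exact two-sided permutation p of this difference was 0.1, the smallest possible, and 0.45 after adjustment over the 9 pairs of copies. The other 7 pairs gave p between 0.2 and 1. How the quantification split any reads shared between the copies was not tested.

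The remaining FGF11 subfamily genes were low. *FGF14* had TPM of 15.3, 4.03 and 6.01 in SAR and 2.54, 3.91 and 1.59 in ROH, narrowly without overlap, and its log2 fold change of 1.61 did not pass (edgeR adjusted p = 0.201). Its value in ROH replicate 1 rests on 1 count. *fgf12a* and *fgf11b* had log2 fold changes of 1.61 and 1.48 (edgeR adjusted p = 0.265 and 0.248), and *FGF12* (ENSDARG00000113525) and *FGF11* had 0.94 and 0.31. Summed over the subfamily, TPM was 41.0 ± 9.90 in SAR and 29.0 ± 16.04 in ROH (SD, n = 3), a difference within the spread. *FGFR1OP2*, which does not encode a receptor, had TPM of 25.1, 29.9 and 32.7 in SAR and 35.4, 39.1 and 31.0 in ROH, with a log2 fold change of -0.29 (edgeR adjusted p = 0.382).

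Genes that act with or below the ligands and receptors were read from the same fit in 4 lists, to be set beside the shares of all tested genes given above. Of 25 feedback and target genes, 21 were estimated higher in SAR, the median log2 fold change was 0.31, 5 passed upwards and 1 downwards, and none was called at the fold change threshold. The 5 that rose, chosen for naming after their values were seen, included the ETS factors *etv4* (1.06 ± 0.24, SE, edgeR adjusted p = 0.0287) and *etv1* (1.07, edgeR adjusted p = 0.0464). *fosl1a*, *IER5L* and *dusp1*, all immediate early genes or their relatives that also respond to other stimuli, rose by log2 fold changes of 1.06, 1.33 and 0.74 (edgeR adjusted p = 0.0424, 0.00745 and 0.0214). Of the 5, *IER5L* passed whichever library was left out, and none of the other 4 did so without ROH replicate 1 or 2, where their adjusted p was at most 0.174. *etv1* passed only without SAR replicate 1. *etv4* also failed without SAR replicate 1 or 3 (edgeR adjusted p = 0.0703 and 0.0759). *fosl1a* also failed without SAR replicate 2 or ROH replicate 3, and *dusp1* without ROH replicate 3. The 1 that fell was *dusp6*, which encodes a phosphatase that dephosphorylates ERK and is widely used as a readout of FGF signalling. Its CPM was 172.1, 153.8 and 123.2 in SAR and 257.6, 340.4 and 213.8 in ROH, a log2 fold change of -0.86 ± 0.22 (SE, edgeR adjusted p = 0.0451), without overlap. Its adjusted p was below 0.05 without SAR replicate 1 and between 0.0551 and 0.212 without any one of the others. *egr1* and *ier2a*, the genes of the list with the highest CPM, had log2 fold changes of 0.67 and 0.65 and did not pass. Among feedback inhibitors named after their values were seen, the phosphatase gene *DUSP5* had a log2 fold change of -0.43 and *SPRY1* one of -0.62. *SPRY4* had one of 0.45 and *SPRED2* one of 0.16, and none of them passed. They are a selection from the list, in which 21 of 25 genes were estimated higher in SAR.

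Co-receptors, decoys and carriers were the one list of the 4 with called genes. Of 26 tested genes, 17 were estimated higher in SAR, the median log2 fold change was 0.29, 4 passed upwards and 1 downwards, and 3 were called. *fgfrl1b*, a receptor-like decoy without a kinase domain, had CPM of 75.1, 78.7 and 64.4 in SAR and 13.1, 13.5 and 26.3 in ROH, a log2 fold change of 1.99 ± 0.29 (SE, edgeR adjusted p = 0.00528). *gpc1b*, a heparan sulfate carrying glypican, had CPM of 37.8, 41.5 and 48.8 in SAR and 6.56, 8.99 and 19.2 in ROH, a log2 fold change of 1.78 ± 0.35 (SE, edgeR adjusted p = 0.0175). *fgfbp2a*, of the FGF-binding protein family, went the other way, with CPM of 0.729, 1.37 and 2.00 in SAR and 19.7, 12.5 and 38.6 in ROH, a log2 fold change of -4.02 ± 0.53 (SE, edgeR adjusted p = 0.00371). The syndecan *sdc4* rose by 1.103 and *CDH2*, encoding the N-cadherin that binds FGF receptors, by 1.32 on the log2 scale (edgeR adjusted p = 0.0176 and 0.00531). Without SAR replicate 3, ROH replicate 1 or ROH replicate 2 the adjusted p of *gpc1b* rose to at most 0.0832, and that of *sdc4* rose to at most 0.0792 without ROH replicate 1 or 2. The Klotho co-receptors *KL* and *klb*, named as an exception to the rule for naming genes, had log2 fold changes of -1.68 and -1.29. Their mean CPM was below 2 and they did not pass. They are a selection from the list, in which 17 of 26 tested genes were estimated higher in SAR.

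Of 24 tested heparan sulfate genes, 17 were estimated higher in SAR and their median estimate was 0.26 on the log2 scale. Of these, 3 passed, all upwards. These were the sulfotransferases *HS6ST1*, *hs3st3b1b* and *hs6st2*, with log2 fold changes of 1.45, 1.38 and 0.68 (edgeR adjusted p = 0.0111, 0.0231 and 0.0451). Of 36 genes of the RAS-MAPK cascade, 21 were estimated higher in SAR and 2 passed, *map2k1* with 1.24 and *hrasb* with 0.79 (edgeR adjusted p = 0.0146 and 0.0276), and the median of 0.05 lay near that of all genes. Over all tested genes, 52.3% were estimated higher in SAR and 4.88% passed upwards. None of the 5 heparan sulfate and cascade genes that passed did so without ROH replicate 2, where their adjusted p lay between 0.0567 and 0.208. *HS6ST1* and *map2k1* passed without any one of the other libraries. *hs3st3b1b* also failed without SAR replicate 3 or ROH replicate 1. *hs6st2* passed only without SAR replicate 2, and *hrasb* only without SAR replicate 1. The adaptor genes *CRK* and *SHC1* and *PTPN11*, which encodes the phosphatase SHP2, were the 3 with the highest CPM among those not called. They had log2 fold changes of 0.07, 0.49 and 0.06.

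**Figure D5:**
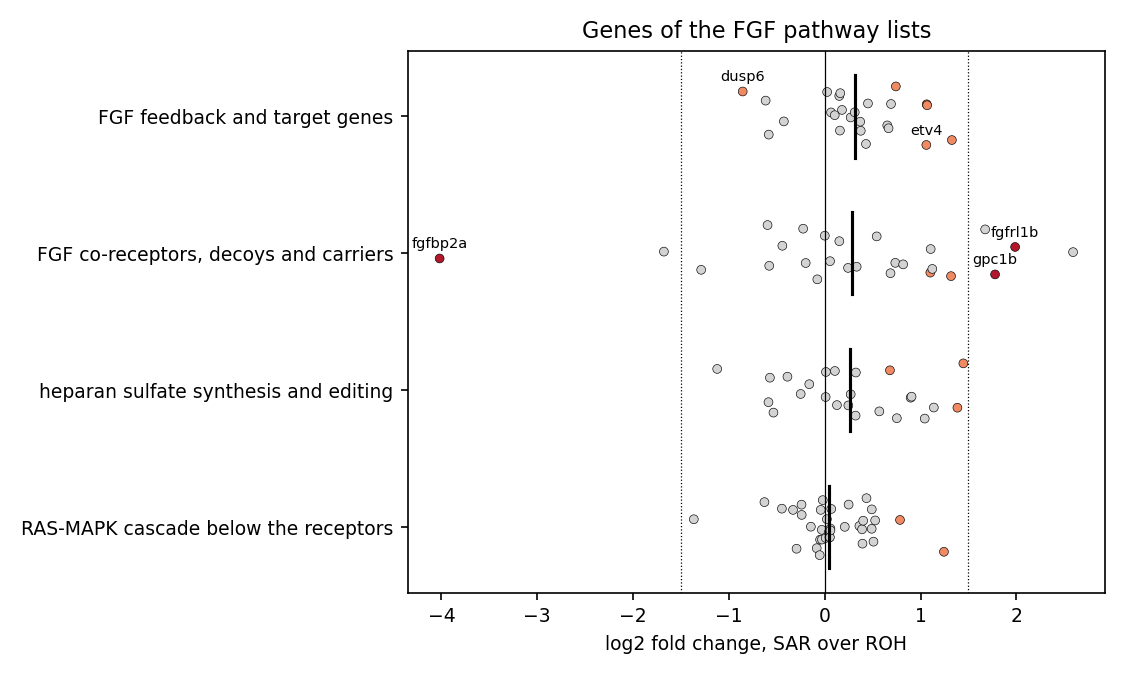
Log2 fold change (SAR over ROH) of each tested gene in the 4 lists around FGF signalling, with dark red points for genes called, orange for an adjusted p below 0.05, grey for the rest and a black bar at the median. The medians lie between 0.05 for the RAS-MAPK cascade and 0.31 for feedback and target genes, and *fgfbp2a* at -4.02 lies furthest from 0.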

How the data were processed

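RNA of FACS-sorted SAR (GFP+) and ROH (GFP-) cells of 72 hpf sqet33mi59BEt hearts was turned into cDNA with SMART-Seq v4 and into libraries with Nextera XT, and sequenced in pairs. Per the labels and the paper, reads were processed with bcl2fastq (version 2.16.10), cutadapt and Salmon on GRCz11 with annotation of Ensembl. The authors deposited TPM, normalized by Salmon to gene length and library total, and estimated counts, for 31465 genes. The paper describes 3 biological replicates of pooled embryos. P-values measure the spread between these libraries. Groups and replicate numbers came from the labels. Both fractions carry the same numbers, and the main test did not pair them.

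After rounding of the estimated counts, filterByExpr kept genes that reached 0.470 CPM, which is 10 counts at the median depth, in at least 3 libraries and 15 counts in total, and TMM factors scaled the libraries, giving CPM. edgeR (version 4.0.16, R version 4.3.3) compared the fractions by quasi-likelihood, without a further factor, with Benjamini-Hochberg adjustment over the 21969 genes tested. Genes passed at an adjusted p below 0.05 and were called if the log2 fold change was also 1.5 or more in size. The standard error is the unshrunk log2 fold change divided by the square root of the quasi-likelihood F. Within-library ratios of copies (prior count 2) were tested by exact permutation, on both sides. TPM served for levels between genes. The floor of 3 counts covers counting error only. The procedures were tested on simulated data.

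Symbols came from the paper's tables for 2653 genes and from a gene name table for 26346, and 2466 genes had none. Of the FGF genes, 12 share their symbol. Gene order came from the start positions in a RefSeq table of GRCz12tu, and no coordinates are given here. Lists matched names with or without the a or b suffix. The FGF genes and lists were chosen with earlier results of these data known. Called genes, receptors and FGF genes without overlap that passed were to be described in full, tested ones of at least 1 TPM in short, and in each list called genes and up to 3 of the highest others, with exceptions marked.

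The alternatives were DESeq2 (version 1.42.0), RLE factors, library totals, no filter, gene length offsets, at least 10 counts in every library, limma (version 3.58.1) on log2(TPM + 1), on log2(TPM + 0.1) and without genes whose TPM averaged under 1, counts thinned to the smallest library, the replicate block, each library left out in turn, and no fold change threshold.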

Additional observations from a re-analysis of the deposited data

How the results depend on the processing

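Of 454 alternative values of the 29 tested FGF genes, 393 kept their direction and side of the threshold, 34 lost and 4 gained significance, and 23 reversed. The cause was not tested. The 2 FGF genes called higher became 1 with at least 10 counts in every library, with limma in its 3 settings and with thinned counts, 1 to 4 with a library left out, and 6 without the fold change threshold. With at least 10 counts in every library, *fgf24* was not tested, since ROH replicate 1 held 5 of its reads. The 6 that passed upwards became 2, 2 and 3 with limma on log2(TPM + 1), on log2(TPM + 0.1) and without genes averaging under 1 TPM, and 2 to 4 with a library left out. The count of 0 called or passing downwards became 2 with DESeq2 and 0 to 1 with a library left out.

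Over all genes, 624 called higher and 813 lower became 215 and 391 with at least 10 counts in every library, 375 and 533 with limma on log2(TPM + 1) and 389 and 453 on log2(TPM + 0.1). Thinned counts gave 396 higher, and leaving out a library 369 to 647 higher and 442 to 1035 lower. Without the fold change threshold 1072 were higher. In the lists, dropping that threshold gave 5 feedback genes higher and 1 lower, 4 co-receptors, 3 heparan sulfate genes and 2 cascade genes. The 2 co-receptor genes called higher became 1, and the 1 called lower 0, with at least 10 counts in every library, and 1 to 3 were called higher with a library left out. *gpc1b* and *fgfbp2a* had fewer than 10 counts in a library, so that filter left them untested. Heparan sulfate genes called higher numbered 0 to 2 and cascade genes called lower 0 to 1 with a library left out, and gene length offsets gave 1 cascade gene lower.

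With a library left out, that of *fgf1a* ran from -0.58 to 0.0328, above 0 without SAR replicate 1 or ROH replicate 3. That of *FGF18* (ENSDARG00000088048) became -0.0742 with library totals only and ran from -0.37 to 0.28 with a library left out, below 0 without SAR replicate 2, ROH replicate 1 or ROH replicate 3. That of *fgf17* became -0.0682 with library totals and -0.15, -0.30 and -0.15 with limma in the order above, and ran from -0.75 to 0.44 with a library left out, below 0 without SAR replicate 2 or ROH replicate 3. That of *FGF11* became -0.65 with gene length offsets, -0.0887, -0.13 and -0.0887 with limma, and -0.20 to 1.28 with a library left out, below 0 without SAR replicate 1 or ROH replicate 2. That of *FGF13* (ENSDARG00000056633) became 0.0018 with at least 10 counts in every library, and -0.38 to 0.39 with a library left out, above 0 without SAR replicate 2 or ROH replicate 1.

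With the replicate number as a block, 7 FGF genes passed upwards and 2 were called, *fgf17* became -0.12 and *FGF13* (ENSDARG00000056633) 0.0153, and over all genes 719 were called higher and 1040 lower. Deviations of same-numbered libraries correlated with r of 0.0985, 0.273 and 0.124, each above those with other numbers. The labels number both fractions alike, and the paper describes replicate heart pools sorted into both fractions, which points to pairing. Neither states that same-numbered libraries shared a pool, and the main fit left pairing out. With the block, the edgeR adjusted p was 0.00406 for *fgfr4* and 0.0115 for *fgf10a*, and *fgfr1bl* passed at 0.0242. Depth limits the low ligands, since 3 counts equal 2.81 CPM in ROH replicate 1.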
